A study of Bos taurus with 20 samples.

Results

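The 10 arrays of male bovine morulae, 5 from embryos given DKK1 and 5 from embryos given vehicle, form the comparison described here. They were taken from a series of 20 arrays by their labels: all come from Y-bearing sorted semen, and the titles name the treatment. Each array holds amplified RNA from 1 pool of 20 morulae. Embryos were produced in vitro from oocytes of abattoir ovaries, with semen pooled from several bulls, and grown in SOF-BE1 medium. On day 5 after insemination the DKK1 group received recombinant human DKK1 (final concentration 100 ng/ml). The control group received the same volume of phosphate-buffered saline with bovine serum albumin. Both were harvested on day 6, after 24 h, as compacted and non-compacted morulae. Sex was set by the sorted semen and was not read from each embryo, so a male pool can hold some female embryos. The other 10 arrays, of female embryos under the same 2 treatments, share the estimate of the spread and serve for the comparison between the sexes. The labels number the pools of a group but do not tell whether they came from separate fertilizations, so P values measure the spread between pools.

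DKK1 (dickkopf WNT signaling pathway inhibitor 1) is a secreted antagonist of canonical WNT signalling. It binds the co-receptors LRP5 and LRP6, together with Kremen proteins, and keeps WNT ligands from assembling the receptor complex that stabilizes beta-catenin. In cattle it is made by the uterine endometrium and is one of the maternal factors that reach the embryo around the time when the morula forms trophectoderm and inner cell mass.

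One array had to be set apart before the results. *XIST*, the X-inactivation RNA, was at a log2 level of 8.81 on the array labelled male control replicate 2. The other 9 male arrays had 6.30 to 8.22 and the 10 female arrays 8.42 to 10.03. *DDX3Y*, a helicase gene of the Y chromosome, was at 4.82 on it, against 6.29 to 8.36 on the other male arrays and 2.65 to 5.43 on the female arrays. The median of its X-linked probe sets exceeded that of its autosomal ones by 0.44, close to the female range of 0.46 to 0.66 and far from the other male arrays (-0.08 to 0.14). On these 3 measures the array goes against its male label. *EIF1AY*, also Y-linked, was at 5.63 on it, but the ranges of the other male arrays (5.91 to 9.10) and the female arrays (2.13 to 6.56) overlapped. The array also had the narrowest spread of values (SD 2.11, others 2.21 to 2.30) and the lowest mean correlation with its own group across genes (0.875, others 0.911 to 0.939). Compared with the other 4 male controls it read higher among weak autosomal probe sets and lower among strong ones, with median differences of 0.24 where the mean level was under 5.5 and -0.34 where it was 7 to 9. Differences are therefore given with the 5 controls as labelled and with the 4 controls that remain without this array, in that order where 2 values stand together.

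**Figure D1:**
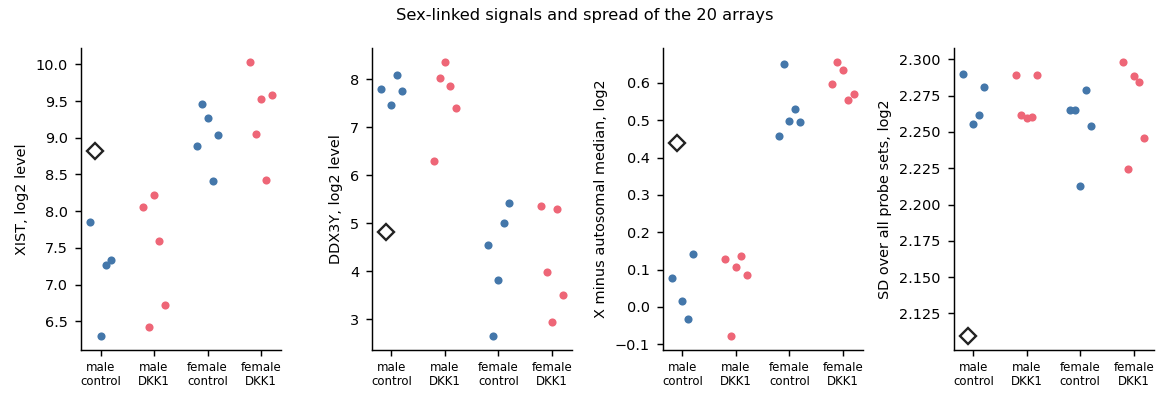
Log2 level of *XIST* and *DDX3Y*, the X-linked minus autosomal median and the SD over all probe sets, 1 point per array, by group (blue control, red DKK1). The open diamond is the array labelled male control replicate 2, which lies within the female range for *XIST* and *DDX3Y*, just below it for the X-linked median at 0.44, and lowest of all in SD at 2.11.

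The pools carried the transcripts of morulae. All 8 lineage genes checked (*POU5F1*, *NANOG*, *SOX2*, *CDX2*, *GATA3*, *GATA6*, *KRT8* and *KRT18*) were in the tested set, which comprises the 9842 probe sets with a mean log2 level of at least 5.5 over the 20 arrays. Of 12 cumulus and granulosa cell genes, 11 were on the array and 0 in the tested set. Their mean level per array ran from 3.37 to 3.79 in male controls and from 3.47 to 3.59 with DKK1. Of 5 sperm genes only *TNP2*, a transition protein of the sperm nucleus, was in the tested set. Because each value is the signal of a whole pool, fewer cells of a type and less RNA per cell cannot be told apart.

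No gene passed correction for multiple testing. At an adjusted P under 0.05 (limma, Benjamini-Hochberg over the 9842 probe sets), 0 probe sets differed between DKK1 and control, both with 5 and with 4 controls. The lowest adjusted P values were 0.501 and 0.646. An unadjusted P under 0.05 was reached by 421 probe sets with 5 controls (4.28% of those tested) and by 322 with 4 controls (3.27%). Both shares are below the 1 in 20 that such a P gives where no gene differs. The following account concerns the 7342 tested probe sets with 1 gene symbol on an autosome, which stand for 7200 genes. It is a description of the genes nearest to a difference, at a P that was not adjusted.

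The balance between higher and lower genes depended on 1 array. With 5 controls, 231 autosomal probe sets were higher with DKK1 (3.15%) and 83 lower (1.13%), together 4.28%. Of the higher ones 112 reached 1.5-fold, and 31 of the lower ones were under 0.66-fold. With 4 controls, 127 were higher (1.73%) and 121 lower (1.65%), together 3.38%, of which 59 and 50 met these fold limits. The counts past the fold limits also moved with other arrays, to 193 higher without male control replicate 1, 170 without male control replicate 5 and 47 lower without male DKK1 replicate 3. The median difference over all 7342 probe sets was 0.05 with 5 controls and -0.0021 with 4, and 59.2% and 49.6% of differences were above 0. The array labelled male control replicate 2 was the lowest of the 10 male arrays for 36.3% of the 7342 probe sets. Among the 135 that were higher only when this array was kept, it was the lowest for 108 (80%). Scaling moved the split as well: with 5 controls, centring the arrays by the median of their autosomal probe sets gave 156 higher and 149 lower, and a second quantile normalization gave 176 and 133. The median standard error of a difference was 0.225 with 5 controls and 0.223 with 4.

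A core of 148 probe sets (2.02%) had an unadjusted P under 0.05 in the same direction whether or not that array was kept. Of these, 96 were higher (1.31%) and 52 lower (0.708%) with DKK1. The differences of the 96 ran from 0.31 to 1.24 with a median of 0.64, and those of the 52 from -2.88 to -0.33 with a median of -0.56. A difference of at least 1 on the log2 scale was seen for 8 of the 96 and 5 of the 52. The level threshold was reached only through the male group with the higher values by 3 of the 96 and 4 of the 52, which had to differ to be tested, and 93 and 48 remain without them. DKK1 and control arrays did not overlap, with either set of controls, for 25 of the 96 and 8 of the 52, counting 1 such probe set in each direction. Over all 7342 probe sets, the groups did not overlap for 39 that were higher (0.531%) and 15 that were lower (0.204%) with 5 controls, and for 56 (0.763%) and 49 (0.667%) with 4.

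**Figure D2:**
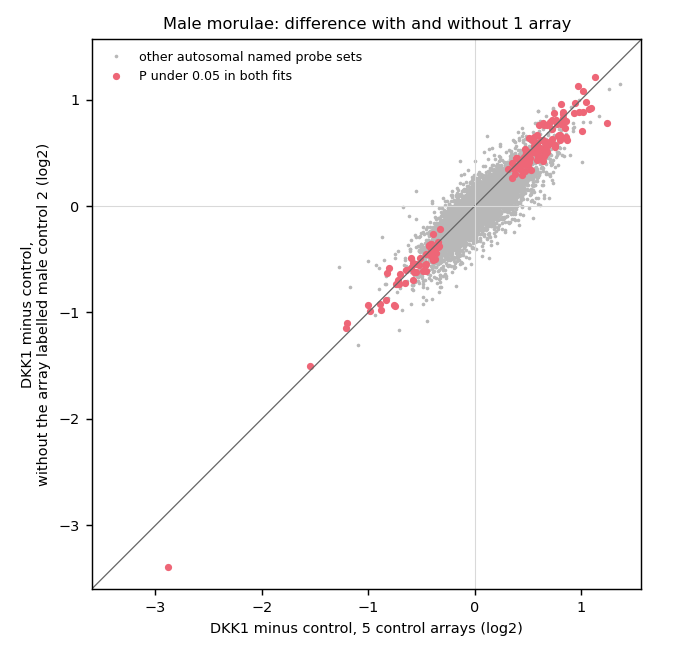
Difference between DKK1 and control in male morulae (log2) for the 7342 autosomal probe sets with 1 gene symbol, with 5 control arrays on the horizontal axis and 4 on the vertical axis, where the array labelled male control replicate 2 is left out. The 148 red points had an unadjusted P under 0.05 in both, and most grey points above 0 lie under the diagonal, as the median moved from 0.05 to -0.0021.

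From this core, the 12 probe sets with the smallest P in each direction, by the larger of their 2 P values, are named. Lower with DKK1 were *CBFB*, *VPS37C*, *PRDM4*, *KIF3B*, *ACTR10*, *PCYT1A*, *CCDC85B*, *TUBB2B*, *BAHD1*, *TCF15*, *SDS* and *RIOK1*. Higher were *SRA1*, *KLC1*, *NKAIN1*, *SLC39A7*, *GSC*, *TMEM256*, *IFI35*, *ELP6*, *OCIAD1*, *CHKB*, *DYM* and *ZNF277*. The adjusted P was 0.986 for all 24 with 5 controls, except 0.501 for *VPS37C*. With 4 controls it was 0.646 for *VPS37C*, *CBFB*, *ACTR10* and *SLC39A7* and 0.989 to 0.999 for the others. The 24 genes include regulators of transcription, motor and cytoskeletal proteins, sorting and Golgi proteins and the lipid enzymes *CHKB* and *PCYT1A*. The differences ran from 0.47 to 1.13 for the 12 that were higher and from -2.88 to -0.38 for the 12 that were lower. A fold change of at least 1.5 was found for 9 of the former and one under 0.66 for 9 of the latter. The groups did not overlap for 6 and 3 of them with 5 controls, and for 8 and 4 with 4 controls, *NKAIN1* counted. *NKAIN1* and *ELP6* are the 2 named genes that passed the level threshold only with the male DKK1 group counted.

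**Figure D3:**
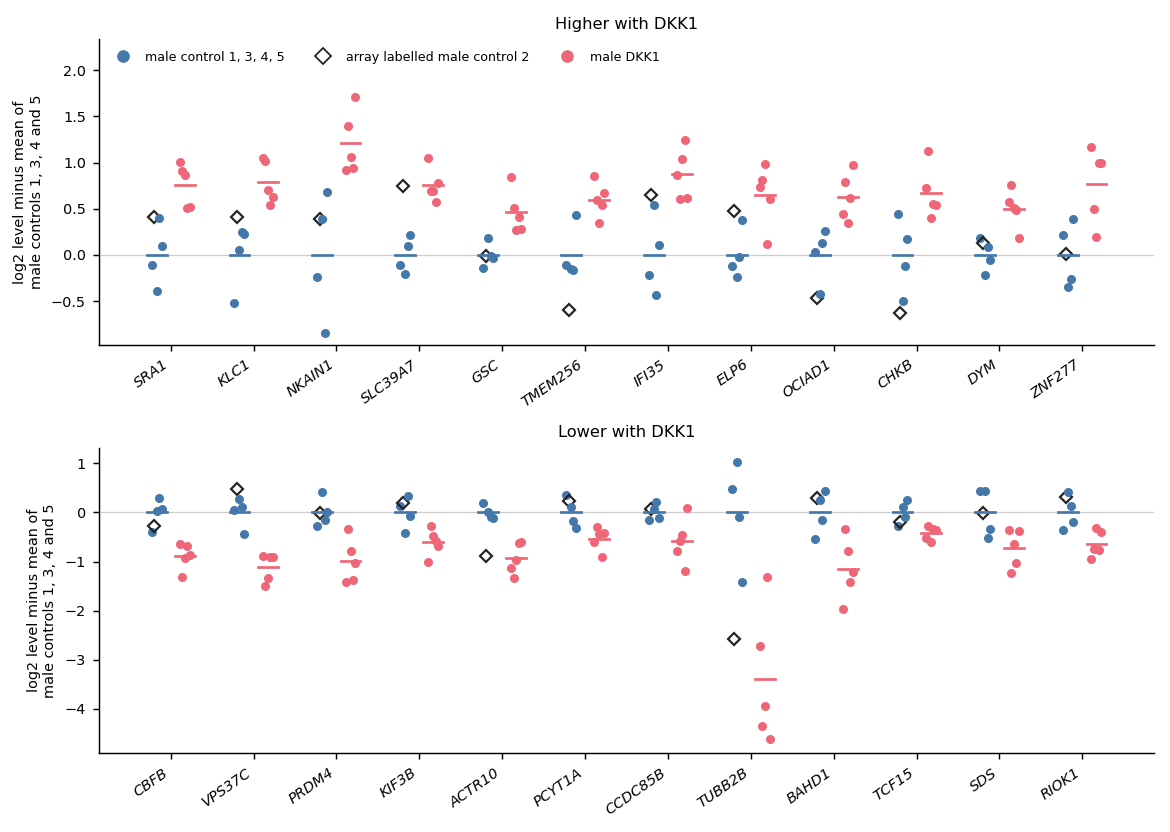
Log2 level of the 24 named genes on each male array, as the distance from the mean of male controls 1, 3, 4 and 5 (blue circles, controls; open diamond, array labelled male control replicate 2; red circles, DKK1; lines, means of the 4 controls and the 5 DKK1 arrays). DKK1 and control circles do not overlap for 8 of the 12 genes in the upper and 4 of the 12 in the lower row once the diamond is set aside.

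Among proteins of membrane sorting, *VPS37C* (chromosome 29 of the assembly ARS-UCD2.0) had the smallest P of the comparison with 5 controls. It encodes a subunit of ESCRT-I, the complex that sorts ubiquitinated membrane proteins, receptors included, into multivesicular bodies. Its levels were 6.66, 7.08, 6.88, 6.71 and 6.16 in control replicates 1 to 5. With DKK1 they were 5.73, 5.11, 5.27, 5.71 and 5.70. Every DKK1 array lay below every control, and replicate 2 was the highest of the controls. The difference was -1.20 (SE 0.24, limma adjusted P = 0.501), a fold change of 0.436, and -1.10 (SE 0.25, adjusted P = 0.646) with 4 controls. *VPS11*, a core subunit of the tethering complexes of late endosomes, lay in the other direction, with control levels of 5.84 to 6.77 and DKK1 levels of 6.78 to 7.42. Its difference was 0.59 with either set of controls. *DYM*, whose product dymeclin maintains the Golgi apparatus, was at 6.98 to 7.37 in controls and 7.38 to 7.95 with DKK1, again without overlap. Of the 44 tested probe sets for ESCRT and vacuolar sorting, *VPS37C* and *VPS11* were the only ones with an unadjusted P under 0.05. That is 1 in each direction, or 2.27%, with either set of controls. Of all 7342 probe sets, 3.15% were higher and 1.13% lower with 5 controls, and 1.73% and 1.65% with 4. The median difference of the list was -0.0039 with 5 controls and 0.02 with 4.

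Several regulators of transcription were among the genes that were lower. *CBFB* (chromosome 18) encodes the non-DNA-binding partner of the RUNX factors. Control levels were 6.96, 7.09, 7.40, 7.66 and 7.43, and DKK1 levels were 6.71, 6.05, 6.44, 6.69 and 6.504. The ranges did not meet, and replicate 2 lay inside the range of the other controls. The difference was -0.83 (SE 0.19) with 5 controls and -0.88 (SE 0.20, adjusted P = 0.646) with 4.

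*PRDM4* (chromosome 5), a zinc finger factor of the PR domain family, was at 6.62, 6.89, 7.33, 6.75 and 6.90 in controls and at 5.48, 6.57, 6.11, 5.53 and 5.86 with DKK1. The highest DKK1 array, replicate 2, was just under the lowest control. The difference was -0.99 with either set of controls (SE 0.23 with 5 and 0.25 with 4). *BAHD1*, a protein that assembles heterochromatin, had a control mean of 7.08 ± 0.40 (SD, 5 arrays) and a DKK1 mean of 5.87 ± 0.62, and its ranges overlapped by the 1 DKK1 array at 6.68. Its difference was -1.21 (SE 0.36) and -1.15 (SE 0.40). *TCF15*, a basic helix-loop-helix factor known from somite formation in the mouse, differed by -0.38 and -0.42, and *CCDC85B*, a coiled-coil protein, by -0.60 and -0.59. For both, at least 1 DKK1 array lay among the controls.

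The regulators that were higher included *GSC* and *SRA1*. *GSC* (chromosome 21), the homeobox gene of the gastrula organizer and a known target of Nodal and WNT signals in vertebrate embryos, had control levels of 6.39, 6.51, 6.71, 6.52 and 6.49. Its DKK1 levels were 7.37, 7.04, 6.80, 6.94 and 6.81. All DKK1 arrays were above all controls, although the step between the nearest arrays was small. The difference was 0.47 (SE 0.13) and 0.46 (SE 0.14) with 4 controls.

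*SRA1* (chromosome 7) gives rise to an RNA that coactivates steroid receptors and to a protein. It was at 7.20, 7.72, 6.92, 7.70 and 7.41 in controls and at 8.31, 8.22, 8.18, 7.81 and 7.83 with DKK1, without overlap. The difference of 0.68 (SE 0.18) was 0.76 (SE 0.19) without replicate 2, the highest control. *ZNF277*, a zinc finger protein, differed by 0.77 with either set of controls, with 1 DKK1 array inside the control range. *ELP6*, a subunit of the Elongator complex that modifies transfer RNAs, differed by 0.56 and 0.65, but its mean over the other 3 groups was 5.44, so the DKK1 arrays alone lifted it past the level threshold.

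Motor and cytoskeletal genes appeared in both directions. *KLC1* (chromosome 21) encodes a kinesin light chain, which ties cargo to the kinesin motor. Its levels were 6.14, 7.08, 6.71, 6.91 and 6.89 in controls and 7.72, 7.68, 7.37, 7.21 and 7.29 with DKK1. The 2 groups did not overlap. The difference was 0.71 (SE 0.19), or 0.79 (SE 0.20) with 4 controls. *KIF3B* (chromosome 13), a motor subunit of kinesin-2, which also drives transport in cilia, differed by -0.64 (SE 0.16) and -0.60 (SE 0.17). Its controls ran from 5.91 to 6.66 and its DKK1 arrays from 5.31 to 6.05.

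*ACTR10*, a subunit at the pointed end of dynactin, the adaptor of the dynein motor, was at 7.36, 6.27, 7.18, 7.06 and 7.04 in controls and at 6.03, 5.82, 6.19, 6.55 and 6.55 with DKK1. The groups overlapped only through the array labelled male control replicate 2. Its difference was -0.75 (SE 0.23) with 5 controls and -0.93 (SE 0.21, adjusted P = 0.646) with 4.

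*TUBB2B*, a beta-tubulin, had the widest difference of any named probe set, but only on 1 of its 3 probe sets. Probe set 12800934 read 8.996, 5.94, 9.56, 8.43 and 7.10 in controls and 5.80, 4.17, 4.58, 7.20 and 3.90 with DKK1. Replicate 2 and replicate 5 of the controls lay within the DKK1 range. The difference was -2.88 (SE 1.00), and -3.39 (SE 1.03) with 4 controls. The other probe sets of the gene, 12801080 and 12804267, differed by -0.01 (SE 0.15) and -0.05 (SE 0.13). Tubulin genes are close copies of each other, and what each probe set detects was not tested, so the value for *TUBB2B* is uncertain. Of the 42 tested probe sets for tubulins and kinesins, 3 were higher (7.14%) and 2 lower (4.76%) at an unadjusted P under 0.05 with 5 controls. With 4 controls, 1 was higher (2.38%) and 2 lower (4.76%). Of all 7342 probe sets, 3.15% were higher and 1.13% lower with 5 controls, and 1.73% and 1.65% with 4. Their median difference was 0.03 and 0.0014.

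A pair of enzymes of the Kennedy pathway, which builds phosphatidylcholine from choline, differed in opposite directions. *CHKB*, choline kinase beta, catalyses the entry step. It was at 7.12, 6.05, 6.17, 6.56 and 6.85 in controls and at 7.40, 7.80, 7.08, 7.23 and 7.22 with DKK1, so that 1 DKK1 array lay below the highest control. The difference was 0.79 (SE 0.21), and 0.67 (SE 0.21) without replicate 2, which was the lowest control. *PCYT1A*, the enzyme that limits the rate of the pathway, was at 7.26 to 7.93 in controls and 6.66 to 7.27 with DKK1. Its difference was -0.58 (SE 0.16) and -0.53 with 4 controls.

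Transporters and other proteins made up the rest. *SLC39A7* (chromosome 23), the zinc transporter ZIP7 of the endoplasmic reticulum, was at 6.66, 7.52, 6.57, 6.87 and 6.99 in controls and at 7.82, 7.47, 7.46, 7.34 and 7.55 with DKK1. Only the array labelled male control replicate 2 reached the DKK1 range. The difference of 0.61 (SE 0.18) was 0.76 (SE 0.16, adjusted P = 0.646) without it, with the smallest P of the comparison with 4 controls.

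*NKAIN1* (chromosome 2), a membrane protein that interacts with the sodium pump, was a weak signal at 4.65, 5.27, 5.27, 4.04 and 5.57 in controls and reached 5.81, 6.28, 5.94, 5.83 and 6.59 with DKK1, without overlap. Its difference was 1.13 (SE 0.31) with 5 controls and 1.21 with 4. Its mean over the other 3 groups was 5.33, under the level threshold, so it entered the tested set only through the group in which it was high, and its values are a description. *IFI35*, an interferon-induced protein, differed by 0.75 and 0.88, and *OCIAD1*, a protein of endosomes and mitochondria, by 0.73 and 0.63. For *IFI35* the highest control was again replicate 2, at 6.05, and the groups did not overlap without it. *TMEM256* differed by 0.72 and 0.60, from a control mean of 8.66 ± 0.36 (SD, 5 arrays). The serine dehydratase *SDS* differed by -0.73 with either set of controls and *RIOK1*, a kinase of ribosomal small subunit maturation, by -0.70 and -0.64. Both overlapped with controls.

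DKK1 acts on the WNT receptor complex, so the genes of that pathway were read in the order of the signal. Of the DKK, LRP and Kremen genes only *LRP6* and *KREMEN1* were in the tested set. *LRP6*, the co-receptor that DKK1 occupies, differed by 0.37 (SE 0.26) with 5 controls and 0.17 with 4. *KREMEN1* differed by -0.22 (SE 0.30) and -0.43. The 4 Frizzled receptors tested had 0 calls in either direction. None of the WNT ligands reached the tested set.

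*WLS* (chromosome 3), the carrier that takes WNT ligands to the cell surface, was the 1 tested autosomal gene of the list of ligands and secretion factors. Its levels were 6.95, 6.37, 6.53, 5.92 and 6.77 in controls and 5.57, 5.21, 6.62, 5.53 and 5.18 with DKK1. All DKK1 arrays but replicate 3 were below all controls, and replicate 3 was above 3 of the 5 controls. The difference was -0.89 (SE 0.32) and -0.92 (SE 0.35) without the array labelled male control replicate 2.

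Inside the cell, *CTNNB1*, which encodes beta-catenin itself, differed by -0.07 (SE 0.16) and -0.12 with 4 controls. Among 19 probe sets for beta-catenin, its destruction complex and Dishevelled, 1 was lower with 5 controls and 2 with 4, against 0 higher in either analysis, or 5.26% and 10.5%. Of all 7342 probe sets, 1.13% and 1.65% were lower. Lower in both was *DVL2*, one of the Dishevelled proteins that relay the receptor signal, with levels of 6.48 to 7.32 in controls and 6.04 to 6.67 with DKK1. Its difference was -0.41 (SE 0.18) and -0.46 (SE 0.19) with 4 controls. Of 14 probe sets for TCF/LEF factors and their cofactors, 2 were lower with 5 controls (14.3%) and 1 with 4 (7.14%), and 0 higher. In lists of this size a single probe set makes up several percent. *PYGO2*, a Pygopus protein that docks on the beta-catenin complex, differed by -0.57 (SE 0.26) and -0.62 (SE 0.28). *TCF7L2*, one of the DNA-binding factors of the pathway, differed by 0.36 with either set of controls (SE 0.26 and 0.29). None of 8 tested target genes of beta-catenin and TCF passed an unadjusted P under 0.05 in either analysis. *AXIN2*, the standard read-out of canonical signalling, differed by -0.03 (SE 0.13) and 0.04. The median difference of the target genes was -0.06 and -0.04, and that of the non-canonical WNT and planar polarity genes, with 0 calls among 11, was 0.07 and -0.0047.

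In the Hippo pathway, which reads cell position and contact and holds YAP1 out of the nucleus of inner cells, the lower probe set was *AMOTL2*. It belongs to the angiomotin family, scaffolds that bind YAP1 at junctions. *AMOTL2* (chromosome 1) was at 5.79, 6.48, 6.03, 5.74 and 5.90 in controls and at 5.73, 5.72, 5.30, 5.72 and 5.52 with DKK1. The groups did not overlap, but the lowest control, at 5.74, and the highest DKK1 array, at 5.73, were almost level. The difference was -0.39 (SE 0.15), of which -0.27 (SE 0.13) remained without replicate 2, the highest control. The other 18 of the 19 tested autosomal probe sets of the list had an unadjusted P above 0.05, and the list's median difference was 0.06 and 0.03. The 1 lower probe set is 5.26% of the list with either set of controls. Of all 7342 probe sets, 1.13% were lower with 5 controls and 1.65% with 4. *AMOT*, the X-linked member of the family, was read because the study examined it. It was at 6.99, 7.48, 6.49, 7.57 and 7.11 in controls and at 6.08, 5.35, 6.84, 5.86 and 6.25 with DKK1, and 1 DKK1 array lay inside the control range. Its difference was -1.05 (SE 0.30), and -0.96 (SE 0.32) with 4 controls.

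Apart from *AMOT*, none of the regulators of the first cell lineages named here from the study passed an unadjusted P under 0.05. *POU5F1*, the pluripotency factor OCT4, had a control mean of 10.46 ± 0.06 (SD, 5 arrays) and a DKK1 mean of 10.47 ± 0.14. *NANOG* and *SOX2*, further pluripotency factors, both differed by -0.18 with 5 controls, and by 0.10 and -0.02 with 4. *CDX2*, the trophectoderm factor, differed by -0.29 (SE 0.45) and -0.04. *GATA3*, *KLF5* and *TEAD4*, which act in trophectoderm formation, and *LATS1*, a Hippo kinase that restrains YAP1, differed by 0.17, 0.22, 0.05 and 0.43, and by 0.04, 0.08, -0.11 and 0.27 with 4 controls. *GATA6*, a hypoblast regulator, differed by -0.05 and -0.14. Of the lists for trophectoderm (9 probe sets), pluripotency and inner cell mass (16) and hypoblast (7), the last alone held a call. It was *LAMC1*, a laminin chain of basement membranes, with a difference of -0.49 (SE 0.21) and -0.61 (SE 0.20). In a list of 7 this 1 lower probe set makes up 14.3% with either set of controls. Of all 7342 probe sets, 1.13% were lower with 5 controls and 1.65% with 4. *FGF4*, *FGFR2*, *ETS2* and *LATS2* were below the tested level, with differences of -0.48, 0.26, 0.30 and 0.01 in a fit to all probe sets, each under 1.5 times its standard error.

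Other genes that the study had singled out for DKK1 had smaller differences without the array in doubt. Of these, only *SMAD3* lost an unadjusted P under 0.05. *SMAD3*, a transducer of activin and TGF-beta signals, was at 7.02, 8.62, 7.33, 7.62 and 7.28 in controls, with replicate 2 far above the rest, and at 7.12, 7.07, 7.29, 6.83 and 6.41 with DKK1. Its difference of -0.63 (SE 0.30), under an unadjusted P of 0.05, was -0.37 (SE 0.26) without that array, which was not. *FKBP11*, a prolyl isomerase of the endoplasmic reticulum, was at 6.18, 4.08, 6.97, 6.13 and 6.29 in controls and at 7.01, 7.62, 6.09, 7.75 and 7.40 with DKK1. Here replicate 2 was far below the rest, and the difference of 1.24 (SE 0.44) was 0.78 (SE 0.35) without it, under an unadjusted P of 0.05 both times. *SEC22B*, a vesicle SNARE between the endoplasmic reticulum and the Golgi apparatus, differed by 0.89 (SE 0.46) and 0.48 (SE 0.41), which did not pass an unadjusted P of 0.05, with replicate 2 at 5.44 and the other controls at 6.83 to 7.95. *RPP38*, a protein subunit of ribonuclease P, was below the tested level and differed by 0.62 (SE 0.36) and 0.43 (SE 0.37), which did not pass either. The study retested these genes, with *TUBB2B*, *PRDM4*, *WLS* and *AMOT*, by quantitative PCR (qPCR) in separate pools. There *AMOT* was lower with DKK1 in both sexes, and *FKBP11* was lower instead of higher. *SEC22B* and *TUBB2B* had no DKK1 effect, and no interaction with sex was significant for *AMOT*, *PRDM4*, *RPP38*, *SMAD3* or *WLS*. In the male pools of that qPCR *WLS* was higher and *RPP38* lower with DKK1, opposite to their directions on the male arrays. *PRDM4* and *SMAD3* were lower there as on the arrays, *SMAD3* only slightly. The study gives no separate test of these male values.

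Most medians of the lists of basic cell functions were lower when the array was left out. For oxidative phosphorylation, 3 of 68 probe sets (4.41%) were higher and 0 lower with 5 controls, and 0 and 0 with 4, where 3.15% of all 7342 were higher with 5 controls and 1.73% with 4. The median difference went from 0.15 to 0.05, and the number of probe sets above 0 from 56 to 45. Mitochondrial ribosomal proteins showed the same shift, from 5 higher (6.58%) and 1 lower among 76 to 1 (1.32%) and 1, with medians of 0.14 and 0.07. *MRPS34* was higher in both analyses, by 0.68 and 0.57, and *MRPL49* was lower in both, by a difference of -0.88 and -0.97. Cytosolic ribosomal proteins had a median of 0.11 and 0.02 over 39 probe sets, aminoacyl-tRNA synthetases 0.16 and 0.06 over 28, and the proteasome 0.11 and -0.03 over 43. Against these stand the medians of all 7342 probe sets, 0.05 and -0.0021.

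Single members of these lists kept an unadjusted P under 0.05 with both sets of controls. Higher were *IDH2*, the mitochondrial isocitrate dehydrogenase that makes NADPH (0.55 and 0.51), and *EIF2AK1*, the heme-regulated kinase that restrains translation (0.60 and 0.52). *PSMG1*, a chaperone of proteasome assembly, differed by 0.42 and 0.37. Of 27 probe sets for DNA replication licensing, 2 were higher with 5 controls (7.41%) and 3 with 4 controls (11.1%). Of all 7342, 3.15% and 1.73% were higher. Higher both times were *GINS2* of the replicative helicase (0.62 and 0.54) and *RFC4* of the clamp loader (0.60 and 0.46). *ERCC4*, a nuclease of excision repair, differed by 0.58 and 0.56, and *INCENP*, a scaffold of the chromosomal passenger complex, by 0.35 and 0.40. Of 34 probe sets for DNA damage and repair, 1 was higher (2.94%) with either set of controls. Of 26 for the spindle checkpoint and mitotic kinases, 2 were higher (7.69%) with 5 controls and 1 (3.85%) with 4. *OOEP*, an oocyte transcript of the subcortical maternal complex, was at 3.95 to 5.59 in controls and 5.43 to 6.29 with DKK1, with a difference of 0.97 (SE 0.34) and 1.12 (SE 0.35). Its female means were 6.08 in controls and 5.86 with DKK1, so the male controls were the low group. It was the 1 higher of 5 tested oocyte transcripts (20%), and 16 others were below the level threshold. Lower was *TPI1*, triosephosphate isomerase of glycolysis, with controls spread from 5.59 to 8.51 and a difference of -1.54 (SE 0.61) and -1.50 (SE 0.67). The other 11 tested glycolysis probe sets had an unadjusted P above 0.05.

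**Figure D4:**
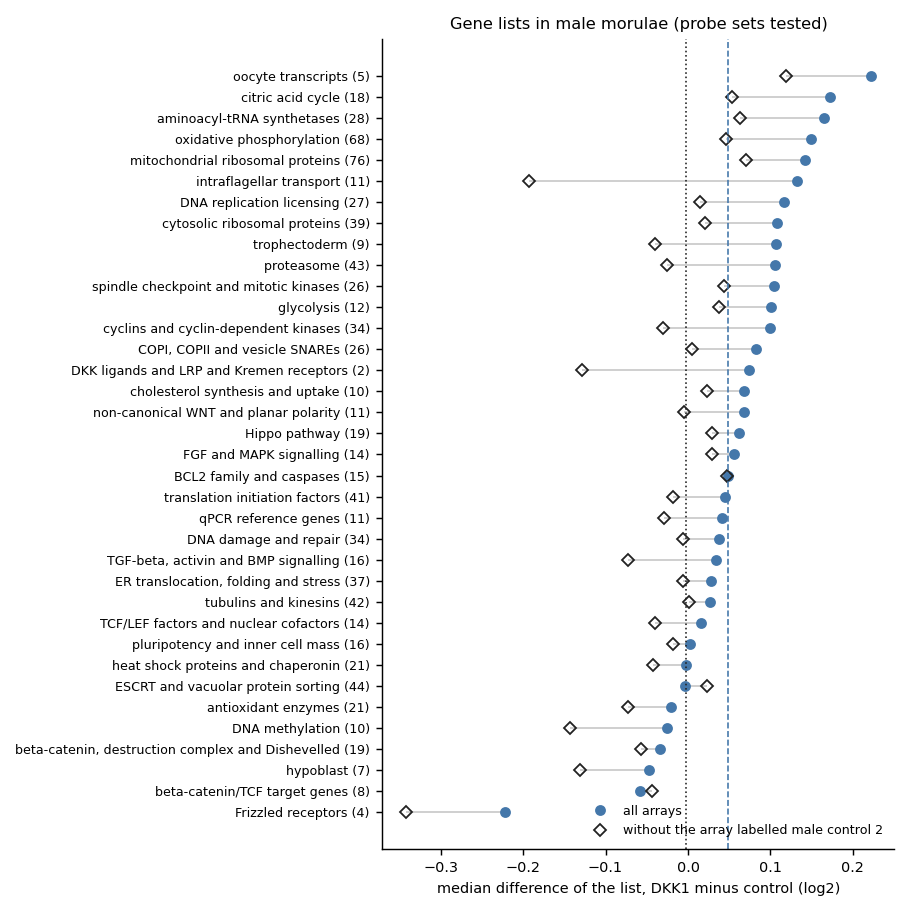
Median difference between DKK1 and control in male morulae (log2) for each gene list, with the number of tested probe sets in parentheses (filled circles, 5 controls; open diamonds, without the array labelled male control replicate 2). The dashed and dotted lines mark the medians of all 7342 autosomal named probe sets, 0.05 and -0.0021, and most diamonds lie to the left of their circle.

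The same treatment gave other values in female embryos. Across the 7342 autosomal probe sets the male and female differences had a correlation of -0.078 with 5 male controls and 0.004 with 4, given as a description across genes. In females 311 probe sets (4.24%) had an unadjusted P under 0.05, and 387 (5.27%) when the spread was estimated without the array labelled male control replicate 2. Of the 148 that formed the male core, 65 had the same sign in females, 43.9%, against 48.0% over all 7342. Only 5 of the 148 had an unadjusted P under 0.05 and the same sign in females.

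Among the 24 named genes, *KLC1* and *GSC* had that in females, with differences of 0.57 (SE 0.19) and 0.32 (SE 0.13). The difference between the sexes was tested as an interaction. It had an unadjusted P under 0.05 for 344 of the 7342 probe sets (4.69%) with 5 male controls and 316 (4.3%) with 4, and for 0 at an adjusted P under 0.05. Since the 24 genes were chosen for their male difference, their interaction is given as values only. The unadjusted P was under 0.05 for 13 of the 24 with 5 controls and 16 with 4. *SRA1* had a male minus female effect of 0.88 (SE 0.26), *KIF3B* of -0.75 (SE 0.23), *PCYT1A* of -0.76 (SE 0.23) and *PRDM4* of -1.09 (SE 0.33), all with a limma adjusted P of 0.969. With 4 controls these were 0.96, -0.71, -0.71 and -1.09, with an adjusted P of 0.997.

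For *WLS* the female arrays had a control mean of 6.29 and a DKK1 mean of 6.95. That difference of 0.66 (SE 0.32), which did not pass an unadjusted P of 0.05, has the opposite sign to the male one. The interaction was -1.54 (SE 0.45, limma adjusted P = 0.969) with 5 male controls and -1.58 (adjusted P = 0.997) with 4. *SMAD3* also had opposite signs, with a female difference of 0.89 (SE 0.30) and an interaction of -1.52 (SE 0.42), or -1.26 with 4 controls. For *RPP38* the female difference was -1.12 (SE 0.36) and the interaction 1.74 (SE 0.51), or 1.55 (SE 0.50) with 4 controls. For *AMOT* the interaction was -1.29 (SE 0.43) and -1.20. These 4 interactions were under an unadjusted P of 0.05 with either set of male controls, and none passed adjustment. The study had picked these genes for an interaction on these same arrays, so the unadjusted P values repeat its choice. Its qPCR in separate pools found no significant interaction for any of the 4.

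**Figure D5:**
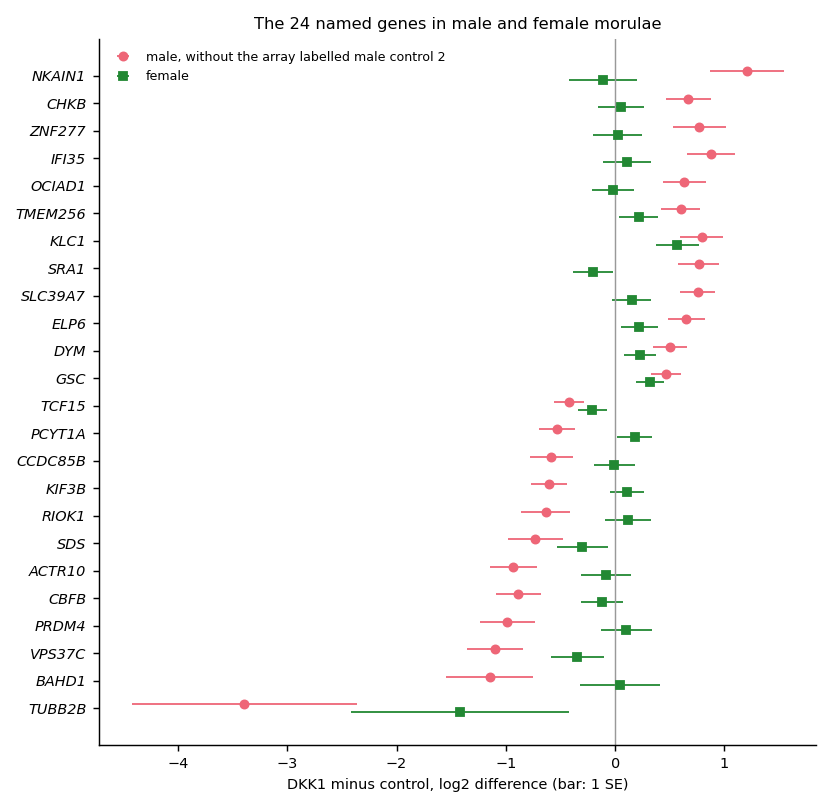
Difference between DKK1 and control (log2, points, with bars of 1 SE) for the 24 named genes in male embryos without the array labelled male control replicate 2 (red) and in female embryos (green). Female values lie nearer to 0 for all 24 genes, which were chosen on the male values, and *KLC1* and *GSC* have female differences of 0.57 and 0.32.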

How the data were processed

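Amplified RNA from pools of 20 morulae had been hybridized to whole-transcript Affymetrix arrays for bovine genes. The deposited log2 values were made by the authors with RMA (background correction, quantile normalization and probe set summary) in Affymetrix Expression Console. Software versions are not given in the sources used here. Values are signal on a log2 scale with no read depth, and the number of arrays limits the precision. Probe sets were named from the platform annotation, and chromosomes were taken from RefSeq genes of ARS-UCD2.0. Of the 26773 probe sets, those with a mean of at least 5.5 over the 20 arrays were tested (9842), and 7595 of them had 1 symbol, 338 several and 1909 none. Probe sets with several symbols or none were not described.

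A model with 4 group means was fitted in limma 3.58.1 (R 4.3.3) with empirical Bayes moderation. It gave the difference between DKK1 and control in males and in females, and their interaction. P values were adjusted by Benjamini-Hochberg over all tested probe sets, and fold criteria were at least 1.5 or under 0.66. The fit was repeated without the array labelled male control replicate 2. Named genes were, per direction, the 12 autosomal probe sets with the smallest P, ranked by the larger of their 2 P values, among those under 0.05 in both fits. To these were added genes the study examined, members of 39 gene lists that were under 0.05 in both fits, and 5 WNT genes named by role. The members and lists were chosen with earlier results of these data known. The lists cover WNT, Hippo, TGF-beta, FGF and lineage genes, transport, metabolism, translation, cell cycle and repair, and markers of other cells. They are described by counts and medians only. Alternatives were the replicate number as a fixed or random block, array weights, male arrays only, centring, quantile normalization, other level thresholds and each male array left out. Male arrays without replicate 2, and a further array left out beside it, were added after seeing the data. The fit was tested on simulated data. Tables and plots used Python 3.11.15, NumPy 2.4.6, pandas 2.3.3 and matplotlib 3.10.9.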

Additional observations from a re-analysis of the deposited data

Results flagged for a closer look

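Over the 66 probe sets with values in the text, 132 groups of 5 male arrays were examined for a single array far from the other 4 (Dixon's criterion), and 5 were found. Chance gives about 1 in 20 groups. *RPP38* was at 6.46 in male DKK1 replicate 5, where the others had 5.23 to 5.53. *WLS* was at 6.62 in male DKK1 replicate 3, where the others had 5.18 to 5.57. *MRPL49* was at 8.01 in male control replicate 1, where the others had 6.36 to 6.77. The array labelled male control replicate 2 stood apart for *FKBP11*, at 4.08 against 6.13 to 6.97, and for *SOX2*, at 10.32 against 9.37 to 9.64.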

How the results depend on the processing

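No probe set reached an adjusted P under 0.05 for DKK1 in males in any alternative. For the male effect minus the female effect, 1 did without a level threshold. The count of higher autosomal probe sets (231 of 7342) was 127 to 334 as each male array was left out, the lowest without male control replicate 2. It was 363 of 17764 for probe sets with 1 symbol and no threshold. The count of lower ones (83 of 7342) was 169 with array weights, 149 after centring and 133 after quantile normalization. Other thresholds changed the number of probe sets too: 140 of 10399 were lower at 4.5 and 47 of 5044 at 6.5. Without a threshold 360 of 17764 were lower, and 363 of 17764 when only probe sets with 1 symbol were fitted. With 4 controls the lower count (121) was 184 with male arrays only. The causes were not tested. Replicate numbers did not pair the arrays: deviations of same-numbered male arrays correlated at -0.0244 to 0.0332, and 1 of 5 DKK1 arrays correlated best with its own number. With the replicate block, 252 were higher and 87 lower, or 150 and 140 with 4 controls.

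All 24 named genes kept their direction and a P under 0.05 in 641 of 641 values under alternatives, after a choice that had required this of both fits. Of 425 values for the 16 list members, which were likewise chosen for a P under 0.05 in both fits, 388 stayed under 0.05. Neither total includes the fits with a further array left out beside male control replicate 2. Differences near 0 changed sign. Over each left-out male array, *POU5F1* ran from -0.037 to 0.058, *TEAD4* from -0.11 to 0.18, *NANOG* from -0.47 to 0.098, *GATA6* from -0.14 to 0.028, *CTNNB1* from -0.15 to 0.030, *AXIN2* from -0.073 to 0.038 and *TUBB2B* (12801080) from -0.066 to 0.092. Array weights gave 0.053 for that probe set, -0.0066 for *POU5F1*, -0.11 for *TEAD4* and 0.028 for *AXIN2*. Centring and quantile normalization gave -0.061 and -0.057 for *POU5F1*, and -0.018 and -0.0059 for *TEAD4*. With 4 controls, centring, quantile normalization, the block and male arrays only gave 0.10, 0.087, 0.063 and 0.092 for *TUBB2B* (12801080), and 0.11, 0.096, 0.28 and 0.098 for *NANOG*. They gave -0.0060, -0.029, -0.012 and -0.015 for *POU5F1*, -0.098, -0.11, -0.11 and -0.11 for *TEAD4*, and 0.047, 0.042, 0.0082 and 0.038 for *AXIN2*. The block with 4 controls gave 0.025 for *SOX2*. List medians ran from -0.19 to 0.22 for intraflagellar transport (0.13) and from -0.030 to 0.15 for cyclins and their kinases (0.10) as each male array was left out, the lowest without male control replicate 2.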
